A study of Mus musculus with 57 samples.

Results

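The genes described here are 10 FOXO factors, FOXO targets and brakes on mTOR. They were chosen by name, with earlier results of these data known. The forkhead factors are Foxo1 and Foxo3. The FOXO targets are Klhl24, Ccng2, Pdk4, Bcl6 and Pik3ip1, and the mTOR brakes are Sesn1, Sesn3 and Ddit4. Pik3ip1 also restrains PI3K and is described with the brakes. They were read in 5 tables of counts from embryonic mouse salivary gland, in 57 samples. All 10 genes were among the 16180 genes tested in end buds, the 14985 tested in the TORIN1 table, the 14991 tested in the knockout table and the 16521 tested in fresh glands. The table of longer NRG1 cultures holds 6 of them.

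Every group is labelled wild type (WT) except one labelled knockout (KO) for Erbb3. End buds are the tips of the branching epithelium from which acini form. They were labelled as untreated or as given NRG1, a ligand of the receptor ERBB3, at 4 h of culture. The E13 titles cover 3 control and 3 treated samples, and the E14 titles 2 control and 3 treated samples. The E14-titled samples carry the stage label E13 plus 4 h, and NRG1 C carries E13 plus 72 h, so E13 and E14 stand for the titles. Epithelium labelled E13 plus 72 h received TORIN1, which blocks the kinase mTOR in both of its complexes, or the solvent DMSO (4 samples each). Fresh untreated submandibular glands were taken at E13, E14, E15, E16, E17 and E18 (4 each), untreated E16 glands were labelled WT or KO (4 each), and E13 epithelium was kept with NRG1 for 2, 3 or 4 days (2 each). The labels used here give no dose, and nothing says which allele the KO glands carry or whether replicates are separate litters or cultures. The p-values therefore stand for sample-to-sample spread alone, possibly technical.

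FOXO factors are kept out of the nucleus when AKT phosphorylates them, and AKT is fully active after phosphorylation by mTORC2. Growth factor signalling through PI3K therefore lowers FOXO activity, and genes that FOXO factors switch on tend to fall when such a signal arrives and to rise when it is blocked. Several of these genes restrain the pathway in turn. PIK3IP1 binds the catalytic subunit of PI3K, the sestrins SESN1 and SESN3 hold back mTORC1, and DDIT4 (also called REDD1) acts on mTORC1 through the TSC complex. In many tissues FOXO target transcripts are low in fed, growing cells and high in fasted ones.

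Promoters are shown for 3 members, because Ccng2 and Sesn1 hold the only matches to the forkhead motifs searched and Pik3ip1 is the member that was called in both the NRG1 and the TORIN1 comparisons. Each runs 5′ to 3′ from 250 bases before to 50 bases after the annotated start, from RefSeq on GRCm38.p6 (mm10), and all 3 genes lie on the plus strand. Capitals mark a motif match. In Ccng2 they mark the reverse complement of the insulin response element TTGTTTTG at chr5:93267323-93267622. In Sesn1 they mark the forkhead core TGTTTAC in the window chr10:41810324-41810623. Pik3ip1, chr11:3330481-3330780, has no match.
Ccng2: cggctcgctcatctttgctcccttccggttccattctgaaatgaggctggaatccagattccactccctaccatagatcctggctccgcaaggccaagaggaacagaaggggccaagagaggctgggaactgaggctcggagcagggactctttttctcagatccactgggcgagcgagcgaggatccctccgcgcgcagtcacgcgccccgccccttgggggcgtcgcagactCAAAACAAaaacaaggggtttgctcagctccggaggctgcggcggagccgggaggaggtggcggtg
Sesn1: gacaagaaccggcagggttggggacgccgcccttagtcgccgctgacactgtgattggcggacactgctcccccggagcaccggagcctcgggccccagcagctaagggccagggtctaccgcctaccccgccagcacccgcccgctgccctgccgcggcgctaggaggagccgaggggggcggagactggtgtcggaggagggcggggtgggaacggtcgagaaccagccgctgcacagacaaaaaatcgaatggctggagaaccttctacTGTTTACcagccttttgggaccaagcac
Pik3ip1: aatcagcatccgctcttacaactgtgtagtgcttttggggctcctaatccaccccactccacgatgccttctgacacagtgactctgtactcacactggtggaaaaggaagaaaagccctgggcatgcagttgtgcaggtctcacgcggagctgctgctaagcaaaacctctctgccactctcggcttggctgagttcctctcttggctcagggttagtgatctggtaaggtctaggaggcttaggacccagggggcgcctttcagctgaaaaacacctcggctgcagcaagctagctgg

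The search covered both strands of 11 promoters of 9 members, and no entry was found for Klhl24. The DAF-16 binding element TTGTTTAC, named after the worm FOXO factor and containing the forkhead core TGTTTAC, was in 0 of the 11. Over all 32851 promoters of this length, 1.23% held it. The forkhead core was in 1 of the 11, at position 23 after the Sesn1 start, and in 3.65% of all promoters. The insulin response element was in 1 of the 11, with its first base 16 bases before the Ccng2 start (position -16), and in 2.51% of all promoters. A match is a run of letters in this window and not a measured binding site.

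Levels are CPM on the TMM-scaled library size, and log2 fold changes carry a standard error (SE). Calls rest on edgeR's quasi-likelihood test, with Benjamini-Hochberg adjustment over all genes of a table and a threshold of 0.05. Total counts per sample ran from 16027377 to 26306020 in end buds, 16318997 to 19671988 in the TORIN1 table, 13033868 to 25935489 in fresh glands and 8913271 to 11890488 in the KO table. TORIN1 A stood apart from TORIN1 B, C and D, with a chi-square per gene of 99.8 to 118.4 against 6.90 to 26.9 among those 3. E18 D stood apart in the same way, at 169.9 to 230.2 against 10.3 to 18.5 among the other E18 glands. Marker sums, here and below, are CPM on unscaled library sizes. The 10 epithelial marker genes summed to 4271 to 5141 CPM in end buds and 6021 to 7506 CPM in the TORIN1 table. Mesenchyme markers summed to 212 to 632 CPM in E13 end buds, but to 1683 to 5346 CPM in E14 control and 3860 to 4692 CPM in E14 NRG1 end buds. In bulk samples fewer cells of a type cannot be told apart from less RNA per cell.

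After 4 h with NRG1, most of the members were lower in end buds. Of the 10 members 9 fell in E13 end buds and none rose, beside 19.3% of all tested genes that fell. In E14 end buds 7 of 10 fell and none rose, beside 16% of all genes. The same 7 genes fell at both titles (Foxo3, Klhl24, Ccng2, Pdk4, Pik3ip1, Sesn1 and Sesn3), beside 11.4% of all tested genes. At each title 9 members had every NRG1 sample below every control, and Ddit4 was the one whose groups overlapped. Over all tested genes 26.7% at E13 and 25.1% at E14 lay lower without overlap. Without NRG1 C, the sample with the divergent stage label, 7 members still fell at E14. The median log2 change of the members was -0.93 at E13 and -0.86 at E14, against -0.02 and 0.02 over all tested genes.

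Of the forkhead factors, Foxo3 measured 207, 228 and 189 CPM in E13 controls and 134, 136 and 120 CPM with NRG1. In E14 end buds it was 235 and 220 CPM in controls and 128, 121 and 128 CPM with NRG1. Every treated sample lay well below every control, a log2 change of -0.68 ± 0.07 (adjusted p = 4.7e-06) at E13 and -0.85 ± 0.08 (3.7e-06) at E14. Foxo1, the factor best known from insulin signalling in liver, had 33.9, 38.3 and 36.0 CPM in E13 controls and 26.8, 26.2 and 25.8 CPM with NRG1. That was a fall of 0.46 ± 0.10 on the log2 scale (adjusted p = 0.0027). In E14 end buds the Foxo1 samples were apart by a narrow gap, 26.1 and 26.6 against 22.6, 23.9 and 17.4 CPM, and the change of -0.31 ± 0.12 did not pass the test (adjusted p = 0.057). It passed without NRG1 B (-0.40, adjusted p = 0.024).

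Among the targets, Klhl24 gave the smallest adjusted p of the members. It encodes a substrate adaptor of a ubiquitin ligase, known for its role in keratin turnover. Its level was 275, 270 and 285 CPM in E13 controls and 111, 118 and 107 CPM with NRG1. At E14 it was 261 and 227 CPM in controls and 109, 116 and 115 CPM with NRG1. The treated samples sat within a narrow band at both titles, 2.47-fold below the controls at E13 (log2 change -1.31 ± 0.07, adjusted p = 4e-09) and 2.15-fold below at E14 (-1.10 ± 0.07, 1.9e-07).

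Ccng2, an unconventional cyclin found in resting cells, showed the same arrangement. Its E13 controls held 268, 258 and 248 CPM and the NRG1 samples 126, 130 and 136 CPM. Its E14 controls held 208 and 251 CPM and the NRG1 samples 128, 125 and 123 CPM. The level fell 1.97-fold at E13 (-0.98 ± 0.07, adjusted p = 7.9e-08) and 1.83-fold at E14 (-0.87 ± 0.08, 1.8e-06).

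Pdk4 and Bcl6 fell at E13 from low levels that differed between controls. Pdk4 encodes the kinase that shuts down pyruvate dehydrogenase, a step that spares glucose in fasting. It had 6.83, 15.8 and 4.35 CPM in E13 controls and 1.09, 0.333 and 0.894 CPM with NRG1, a log2 change of -3.54 ± 0.56 (adjusted p = 0.0006). At the E14 title Pdk4 had 10.4 and 10.2 CPM against 3.24, 2.63 and 4.72 CPM (-1.54 ± 0.50, adjusted p = 0.036). That call was lost without E14 control B or C, without E14 NRG1 A or B and without E13 NRG1 C, with adjusted p from 0.055 to 0.15.

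Bcl6, a transcriptional repressor, had 16.6, 37.2 and 16.8 CPM in E13 controls and 6.29, 6.67 and 7.40 CPM with NRG1 (-1.78 ± 0.29, adjusted p = 0.00081). At E14 its levels of 23.2 and 22.8 CPM against 14.3, 14.8 and 16.8 CPM were apart but not called (-0.59 ± 0.31, adjusted p = 0.17). E13 control B was the highest control for both genes. Without it the E13 changes were -2.87 for Pdk4 and -1.30 for Bcl6 and both calls held. All groups of the table share 1 estimate of the spread, and without this sample Bcl6 was also called in E14 end buds (-0.59 ± 0.12, adjusted p = 0.0019). It was called as well when the fit held only the E14 groups (-0.62 ± 0.13, adjusted p = 0.0093).

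Of the restraints, Pik3ip1 had 53.9, 50.9 and 40.0 CPM in E13 controls and 22.1, 20.2 and 20.6 CPM with NRG1. At E14 it had 51.2 and 59.4 CPM in controls and 25.1, 18.2 and 20.3 CPM with NRG1. It fell 2.30-fold at E13 (-1.20 ± 0.13, adjusted p = 6.6e-06) and 2.61-fold at E14 (-1.38 ± 0.14, 9.6e-06). A gene on the opposite strand, Gm12592, overlaps Pik3ip1. Whether reads were counted by strand is not stated in the labels, and reads of the pair cannot be separated here.

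The sestrins moved with it. Sesn1 measured 175, 199 and 170 CPM in E13 controls and 94.8, 104 and 98.2 CPM with NRG1, and in E14 end buds 153 and 164 CPM against 84.9, 80.7 and 76.4 CPM. The log2 changes were -0.87 ± 0.07 (adjusted p = 2.7e-07) and -0.97 ± 0.08 (8.8e-07). Sesn3 measured 99.5, 125 and 128 CPM in E13 controls and 57.4, 67.7 and 70.9 CPM with NRG1, and in E14 end buds 89.7 and 76.7 CPM against 48.1, 42.9 and 52.6 CPM. It fell by 0.84 ± 0.11 (adjusted p = 7.3e-05) and by 0.80 ± 0.13 (0.0004). Both paralogs thus stood lower in every treated sample than in every control of the same title.

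Ddit4 did not follow them. It is induced by glucocorticoids, low oxygen and p53 as well as by nutrient stress. It had 279, 343 and 195 CPM in E13 controls and 338, 277 and 299 CPM with NRG1, and 191 and 293 CPM against 297, 163 and 191 CPM in E14 end buds. Treated and control samples were interleaved at both titles, and the changes of 0.17 ± 0.29 (adjusted p = 0.70) and -0.16 ± 0.33 (0.76) were smaller than their errors.

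**Figure D1:**
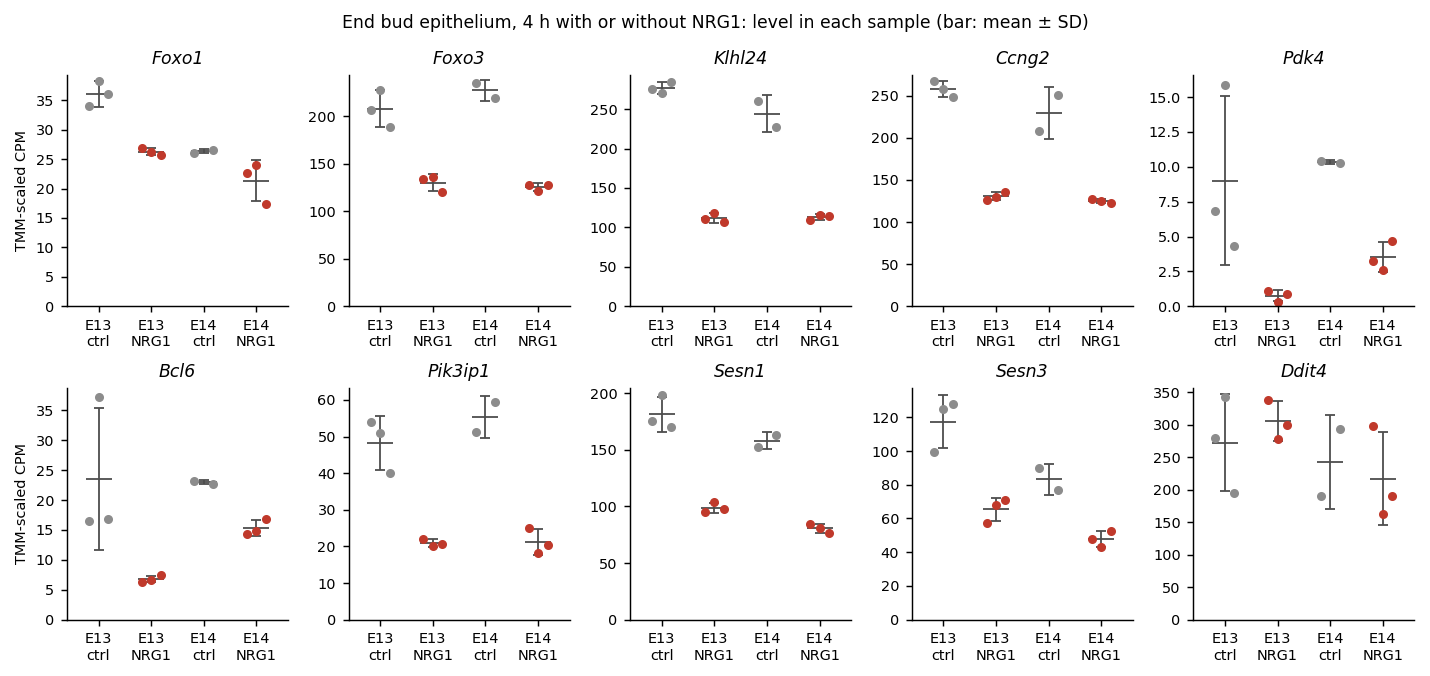
TMM-scaled CPM (vertical axis, from 0) of each member in each end bud sample, for controls (grey) and NRG1 (red) titled E13 and E14, with bars for mean ± SD. The NRG1 samples of 9 genes lie below all controls of their title, while the Ddit4 samples overlap.

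The size of the NRG1 response was compared between the titles in the same fit. None of the 10 members differed, beside 2.27% of all genes that did. The largest differences (E14 minus E13) were 1.99 ± 0.77 for Pdk4 (adjusted p = 0.24) and 1.19 ± 0.43 for Bcl6 (0.21), and DESeq2 called both (adjusted p = 0.032 and 0.025). The other 8 members differed by -0.32 to 0.20. The controls themselves differed in 2 members, Foxo1 at -0.45 ± 0.12 (adjusted p = 0.013) and Sesn3 at -0.50 ± 0.13 (0.015), both lower in the E14 controls, beside 9.20% of all genes lower. In 4 members the E14 controls lay below all E13 controls, beside 22.9% of all genes. All 10 mesenchyme markers and all 8 endothelial markers were higher in the E14 controls, as were 3 of 7 macrophage and 4 of 6 erythroid markers, and the part of this difference in the 2 genes was not tested. In the NRG1 contrasts no marker of mesenchyme, endothelium, macrophages or erythroid cells was called at either title. Of 4 Schwann cell markers 2 were lower with NRG1 at E13, where they summed to 9.55 to 10.3 CPM in controls and 3.88 to 7.25 CPM with NRG1, and 1 was lower at E14. Of 10 epithelial markers 2 were higher and 2 lower at E13, and 2 were lower at E14. The part of these markers in the members' changes was not tested.

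The rest of the pathway was read from lists of related genes. Of 25 tested genes among other FOXO factors and targets, 17 fell and 4 rose with NRG1 in E13 end buds, and 16 fell and 3 rose in E14 end buds. For these and the lists that follow, 19.3% of all genes fell and 23.1% rose at E13, and 16% fell and 20.2% rose at E14. Their median log2 changes were -0.47 and -0.44, against -0.02 and 0.02 over all genes. Trim63, a ubiquitin ligase of muscle wasting, fell by 1.41 ± 0.49 and 2.51 ± 0.53, and Cited2, a transcriptional co-regulator, fell by 1.04 ± 0.08 in E13 end buds. Txnip, which limits glucose uptake, fell by 0.87 ± 0.09 in E14 end buds. The risers were led by the kinase gene Plk2 (1.75 ± 0.17 at E13 and 1.03 ± 0.18 at E14) and the pseudokinase gene Trib1 (1.58 ± 0.17 and 1.10 ± 0.19), which are also known as responders to growth factors.

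Upstream control of mTOR was split, with 7 of 27 genes higher and 7 lower at E13 and 9 higher and 8 lower at E14. Sesn2, the sestrin best known as a leucine sensor and a target of ATF4, rose by 0.79 ± 0.08 (adjusted p = 2.4e-06) in the E13 end buds in which Sesn1 and Sesn3 fell. Flcn and Fnip1, partners that act on the RAG GTPases at the lysosome, fell by 1.15 ± 0.08 and 0.92 ± 0.08 at E13. Nprl3, part of the GATOR1 complex that inhibits mTORC1, rose by 0.71 ± 0.13 at E13 and 0.58 ± 0.14 at E14. Of 11 genes of the mTOR complexes 6 rose and none fell at E13, and 4 rose and 1 fell at E14. Among them were Prr5, an mTORC2 subunit (1.39 ± 0.19 at E13), Deptor, an inhibitor bound to mTOR (1.12 ± 0.35 at E13), and Rictor, the defining subunit of mTORC2, which fell by 0.38 ± 0.12 at E14.

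The PI3K and AKT list had 6 of 20 genes higher and 3 lower at E13, and 4 higher and 3 lower at E14. Pik3r3, a PI3K regulatory subunit, rose by 1.19 ± 0.07 at E13 while its relative Pik3r1 fell by 0.76 ± 0.14. Sgk1, a kinase activated through mTORC2, rose by 1.47 ± 0.50 at E13 and 2.04 ± 0.58 at E14. Of 12 genes whose products act directly below mTORC1, 6 rose and 2 fell at E13 and 7 rose and 3 fell at E14. The translation genes Eif4ebp1 (1.79 ± 0.11) and Eif4e (1.19 ± 0.07) led the E13 risers, and the autophagy kinase gene Ulk1 fell by 0.37 ± 0.07.

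The lists chosen for the other inducers of Ddit4 gave mixed counts. Of 14 p53 targets 5 rose and 4 fell at E13 and 5 rose and 3 fell at E14. Of 8 glucocorticoid targets 2 rose and 3 fell at E13 and 2 rose and 1 fell at E14. Of 9 hypoxia targets 1 rose and none fell at either title, and that gene was Vegfa (2.36 ± 0.11 at E13), which encodes an endothelial growth factor. The median log2 changes of the hypoxia list were 0.69 at E13 and 0.56 at E14, against -0.02 and 0.02 over all genes. Those of the p53 targets were -0.07 and 0.03, and those of the glucocorticoid targets -0.11 and 0.06.

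TORIN1 moved few of the members. After 72 h 1 member rose, Pik3ip1, beside 2.46% of all genes that rose, and 1 fell, Ddit4, beside 3.36% of all genes that fell. Pik3ip1 had 22.2, 22.2, 24.6 and 23.2 CPM with DMSO and 50.8, 30.9, 40.7 and 37.4 CPM with TORIN1. Every TORIN1 sample was above every DMSO sample, a 1.73-fold rise (log2 change 0.79 ± 0.14, adjusted p = 0.018). The call was lost when DMSO A, DMSO B, DMSO C or TORIN1 C was left out, with adjusted p = 0.074, 0.069, 0.064 and 0.057, while the change stayed between 0.65 and 0.90 on leaving out any 1 sample. Without TORIN1 A it was 0.65 ± 0.10 (adjusted p = 0.0017).

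Ddit4 had 73.7, 65.2, 58.4 and 68.0 CPM with DMSO and 28.2, 25.9, 30.2 and 29.8 CPM with TORIN1. Again the groups were apart, here with TORIN1 2.32-fold lower (-1.22 ± 0.10, adjusted p = 0.001). This call held without any single sample, with adjusted p between 6.2e-05 and 0.0099. The other 8 members were not called.

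Of those 8, Sesn1 was apart and lower, with 108, 116, 110 and 98.5 CPM against 98, 95.2, 87.5 and 95.4 CPM (-0.20 ± 0.08, adjusted p = 0.18). Over all tested genes 8.29% lay higher and 9.46% lower with TORIN1 without overlap. Foxo1 had 37.7, 43.0, 40.5 and 41.1 CPM with DMSO and 39.0, 47.1, 64.7 and 61.2 CPM with TORIN1 (0.38 ± 0.15, adjusted p = 0.17). Klhl24 had 180, 192, 192 and 187 CPM against 172, 224, 241 and 234 CPM (0.21 ± 0.11, adjusted p = 0.29). In both genes TORIN1 B, C and D lay above the DMSO samples, while TORIN1 A lay among them in Foxo1 and below them in Klhl24.

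Without TORIN1 A, Foxo1 (0.50 ± 0.10, adjusted p = 0.0067) and Klhl24 (0.31 ± 0.06, 0.0041) were called higher and Sesn1 (-0.23 ± 0.07, 0.033) was called lower. In that fit 3 members rose, beside 11.4% of all genes, and 2 fell, beside 14% of all genes. TORIN1 A also had the lowest Sesn3 level, 135 CPM against 249, 270 and 244 CPM in the other TORIN1 samples and 250, 235, 280 and 319 CPM with DMSO. The mean levels of the remaining genes, each as DMSO against TORIN1, were 180 ± 7.7 and 176 ± 17.4 CPM for Foxo3 (log2 change -0.04 ± 0.09), 87.4 and 89.6 CPM for Ccng2 (0.04 ± 0.12), 7.03 and 8.79 CPM for Pdk4 (0.32 ± 0.22) and 35.4 and 40.5 CPM for Bcl6 (0.19 ± 0.10).

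**Figure D2:**
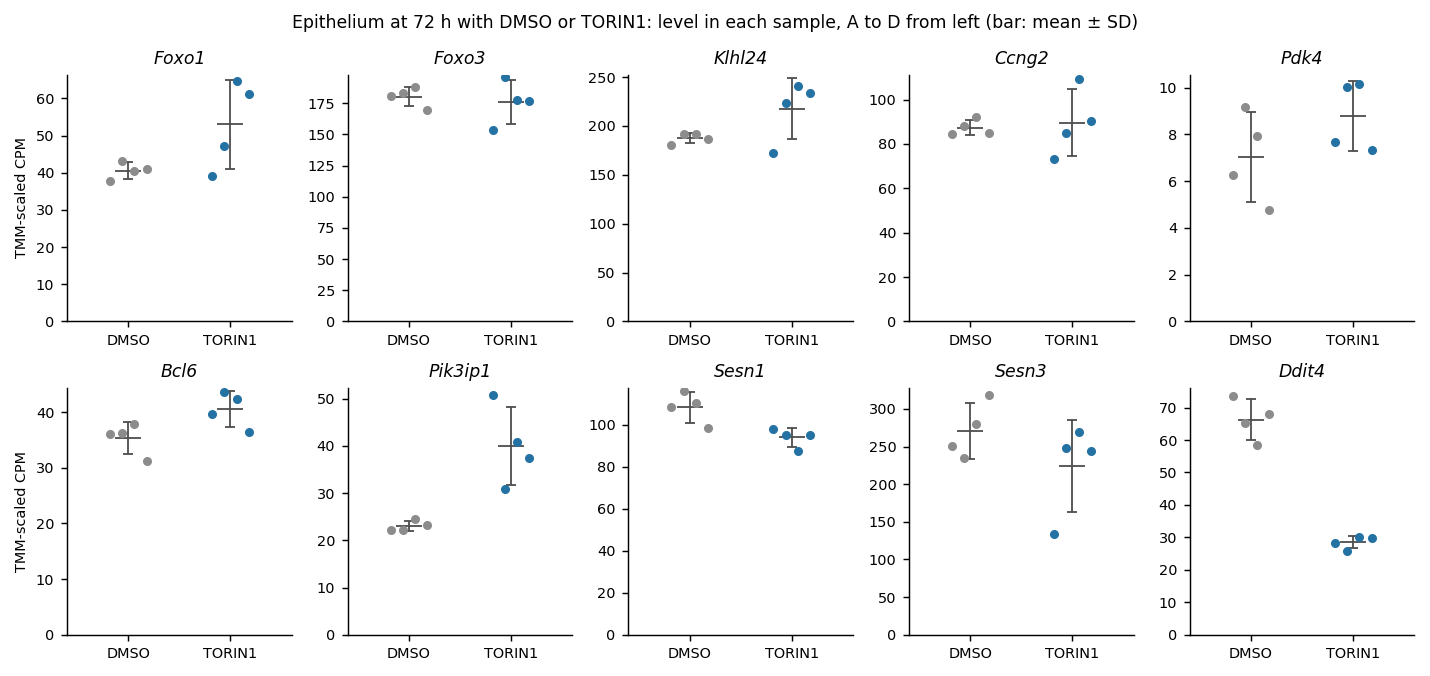
TMM-scaled CPM (vertical axis, from 0) of each member in each sample of epithelium labelled E13 plus 72 h, with DMSO in grey and TORIN1 in blue, samples A to D from left and bars for mean ± SD. Pik3ip1 is higher and Ddit4 lower in all 4 TORIN1 samples, and TORIN1 A (leftmost blue point) is the lowest TORIN1 sample in Sesn3, Klhl24 and Foxo1.

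Related genes responded sparsely to TORIN1, as did all genes, of which 2.46% rose and 3.36% fell. Of 24 other FOXO factors and targets 1 rose and none fell, with a median log2 change of 0.06 against 0.02 over all genes. That gene was Fbxo32, a FOXO target and ubiquitin ligase of muscle wasting (0.75 ± 0.17, adjusted p = 0.038). Of 26 upstream regulators of mTOR 1 fell, Ddit4l, the paralog of Ddit4 (-1.28 ± 0.26, adjusted p = 0.027). Of 19 PI3K and AKT genes 1 fell, Pik3r3 (-1.82 ± 0.16, adjusted p = 0.0015), the gene that rose with NRG1. Of 12 genes acting below mTORC1 1 fell, Lpin1 (-0.93 ± 0.22, adjusted p = 0.041), which encodes a phosphatidate phosphatase. No gene of the mTOR complexes (11 tested) or of the glucocorticoid targets (7 tested) was called. Of 14 p53 targets 1 rose, Fas, and 2 fell, Ccng1 and Btg2, and of 9 hypoxia targets 1 rose, Vegfa (0.37 ± 0.08). Mesenchyme markers summed to 172 to 306 CPM with DMSO and 68.4 to 221 CPM with TORIN1, and none of the 10 was called.

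Set side by side, Pik3ip1 was called with both NRG1 and TORIN1. TORIN1 called only 1 other member, Ddit4, so few could be shared. Over all genes, 5.83% were called with TORIN1 and 42.4% with NRG1 at E13. The comparisons come from separate tables with separate controls, 4 h against 72 h, so the difference between them was not tested. Of the 10 members, 1 (Pik3ip1) fell with NRG1 in E13 end buds and rose with TORIN1, and none fell with both. Over the 13826 genes tested in both tables, 0.817% fell with NRG1 and rose with TORIN1, and 0.579% fell with both. Without TORIN1 A, Foxo1 and Klhl24 were also called higher with TORIN1 and Sesn1 was called lower. In that fit 11.4% of all genes rose and 14% fell. By sign alone, with all samples, 7 of the 10 members had opposite log2 changes with NRG1 at E13 and with TORIN1. Over all genes tested in both it was 55.9%. Among those members, Ddit4 with NRG1 (0.17 ± 0.29) and Ccng2 with TORIN1 (0.04 ± 0.12) had changes smaller than their errors. At E14 the Ddit4 change with NRG1 was -0.16 ± 0.33, the same sign as with TORIN1. Pik3ip1 went from -1.20 ± 0.13 with NRG1 to 0.79 ± 0.14 with TORIN1. Klhl24 had -1.31 ± 0.07 and 0.21 ± 0.11, and Foxo1 had -0.46 ± 0.10 and 0.38 ± 0.15. Their signs were opposite, but neither was called with TORIN1 when all samples were fitted. Ddit4 was the reverse case, with no call for NRG1 (0.17 ± 0.29) and a fall with TORIN1 (-1.22 ± 0.10). Both sestrins had negative values in both, at -0.87 ± 0.07 and -0.20 ± 0.08 for Sesn1 and -0.84 ± 0.11 and -0.27 ± 0.20 for Sesn3.

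**Figure D3:**
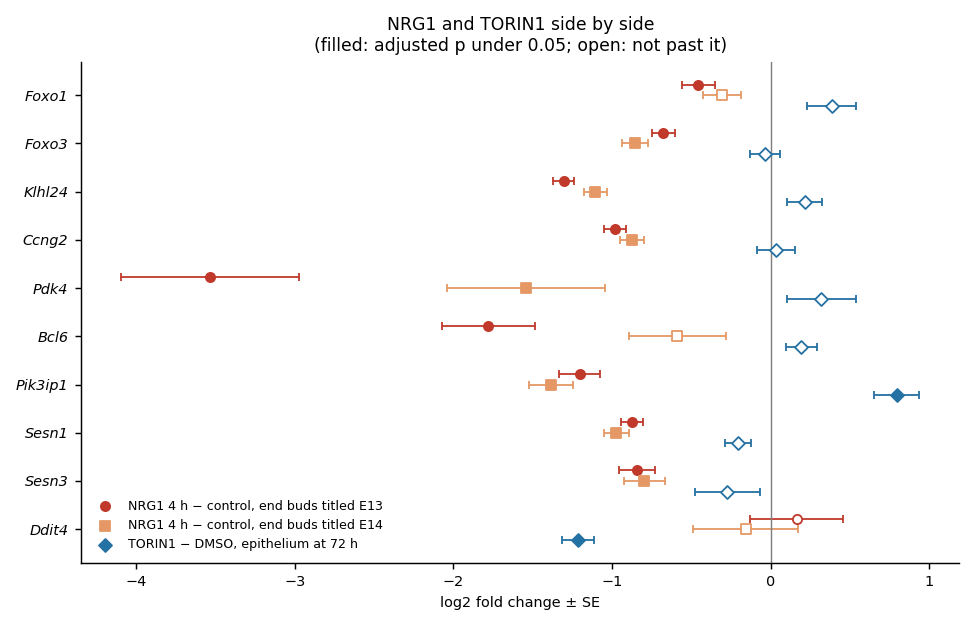
Log2 fold changes ± SE (horizontal axis) of the 10 members with NRG1 in end buds titled E13 (red circles) and E14 (orange squares) and with TORIN1 (blue diamonds), filled where the adjusted p was under 0.05. Nearly all NRG1 points lie left of 0, and only Pik3ip1 (0.79) and Ddit4 (-1.22) are filled for TORIN1.

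The longer NRG1 cultures have no untreated group, so they show time with NRG1 and not its effect. Pik3ip1, Sesn1, Pdk4 and Bcl6 were not analysed here for lack of rows in the table used. Between days 2 and 4, Foxo3, Klhl24, Ccng2 and Sesn3 fell and Ddit4 rose. Of the 5171 genes of that table, which holds a part of the genome, 43.0% fell and 48.7% rose. In all, 91.7% were called and 97% had their day 2 and day 4 samples apart. A call in this table therefore does not set a member apart from the other genes. Foxo1 went from 75.8 and 66.3 CPM on day 2 through 87.9 and 73.5 CPM on day 3 to 57.7 and 66.9 CPM on day 4, overlapping and not called (-0.19 ± 0.12, adjusted p = 0.18). Klhl24 went from 293 and 288 CPM on day 2 through 255 and 254 CPM on day 3 to 207 and 198 CPM on day 4 (day 4 minus day 2, -0.52 ± 0.06, adjusted p = 0.00034). Sesn3 went from 502 and 476 CPM through 446 and 432 CPM to 370 and 378 CPM (-0.39 ± 0.06, 0.0011). Ddit4 went from 111 and 122 CPM through 155 and 137 CPM to 142 and 186 CPM (0.50 ± 0.13, 0.0098). These CPM are shares of the listed genes and cannot be set against those of the other tables.

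In E16 glands the labels were first checked against Erbb3 itself. Its level was 93.5, 68.6, 134.7 and 123.2 CPM in the libraries labelled WT and 32.6, 30.8, 70.8 and 67.3 CPM in those labelled KO, on unscaled library sizes. The library labelled KO 3 thus overlapped WT 2, and the log2 change of -0.94 ± 0.29 did not pass the test (adjusted p = 0.062). Exons outside a deleted part can still give reads, and the deleted part is not stated in the labels used here.

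Of the members 1 was higher in the libraries labelled KO, Ddit4, beside 2.83% of all genes, and 1 was lower, Bcl6, beside 4.20%. Ddit4 had 42.8, 127, 83.9 and 107 CPM in the libraries labelled WT and 249, 226, 163 and 150 CPM in those labelled KO. The groups were apart and the labelled KO mean was 2.18-fold higher (log2 change 1.13 ± 0.29, adjusted p = 0.045). Bcl6 had 10.2, 11.6, 15 and 13.4 CPM against 5.63, 6, 7.05 and 9.48 CPM, also apart (-0.83 ± 0.22, adjusted p = 0.045). Over all tested genes 8.74% lay higher and 9.94% lower without overlap. Both calls lay close to the threshold, and each was lost on leaving out WT 3, WT 4 or any 1 of the 4 libraries labelled KO, with adjusted p from 0.058 to 0.16 for Bcl6 and 0.060 to 0.16 for Ddit4. Over those fits and those without WT 1 or WT 2, the count of all called genes ran from 3 to 3723.

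Klhl24, Sesn3 and Foxo3 had lower means in the libraries labelled KO without passing the test. Klhl24 had 14.5, 17.6, 30.8 and 27.8 CPM in the libraries labelled WT and 8.60, 8.80, 18.4 and 12.9 CPM in those labelled KO (-0.90 ± 0.29, adjusted p = 0.065). In Sesn3 the levels were 65.8, 57.7, 106 and 88.3 CPM against 50.2, 51.7, 55.1 and 59.3 CPM (-0.56 ± 0.18, adjusted p = 0.067). Foxo3 had 72.9, 63.4, 127 and 117 CPM against 57.8, 66.4, 65.0 and 70.6 CPM (-0.55 ± 0.21, adjusted p = 0.096). In each of these genes WT 3 and WT 4 were high and WT 1 and WT 2 came near or within the labelled KO range. All 3 were called lower without WT 2, in a fit that called 3723 of all genes against 1054 with every library.

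The other 5 members overlapped between the labels, with log2 changes of -0.33 ± 0.23 for Foxo1, -0.16 ± 0.19 for Ccng2, 0.07 ± 0.41 for Pdk4, 0.18 ± 0.18 for Pik3ip1 and -0.25 ± 0.15 for Sesn1. Macrophage markers summed to 174 to 212 CPM in the libraries labelled WT and 207 to 397 CPM in those labelled KO, with 3 of 7 called higher, and their part in the Ddit4 and Bcl6 differences was not tested. Epithelial markers summed to 3447 to 4575 and 2742 to 3613 CPM, with 1 of 10 higher and 1 lower.

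**Figure D4:**
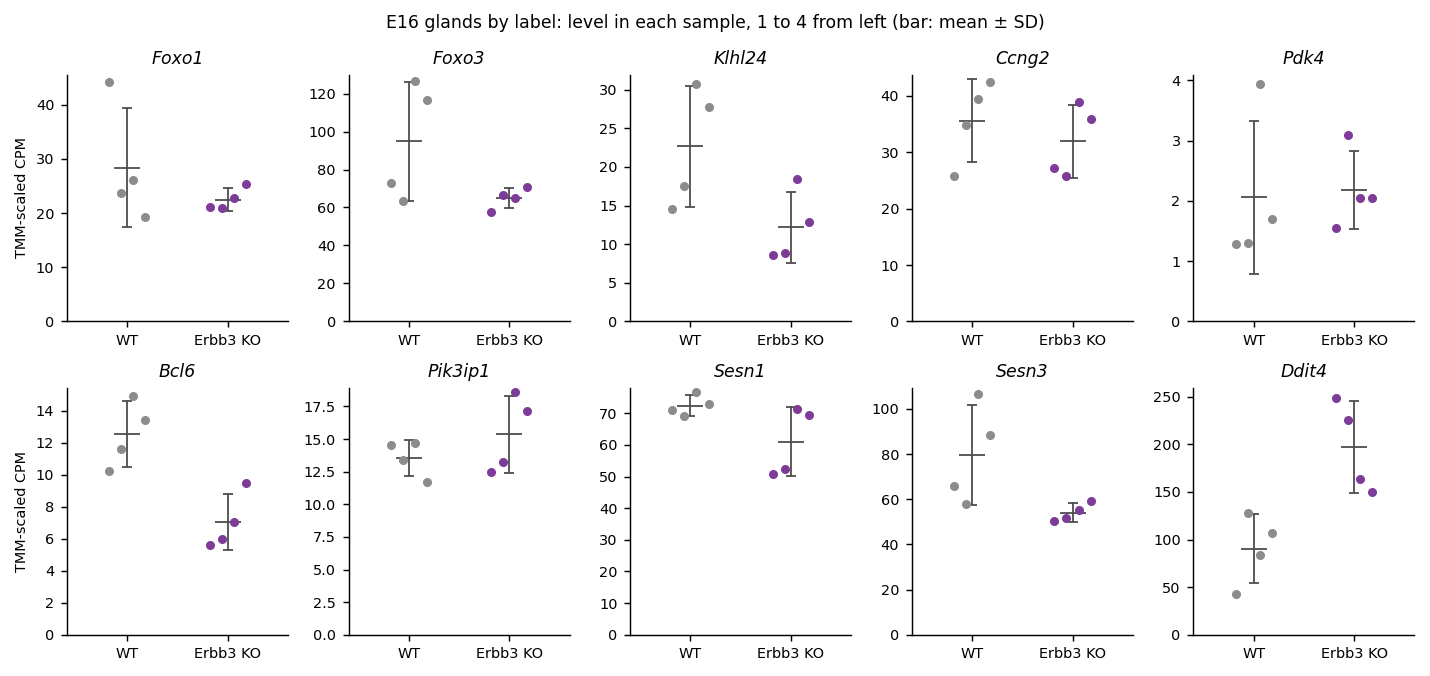
TMM-scaled CPM (vertical axis, from 0) of each member in each E16 gland library, labelled WT (grey) or Erbb3 KO (purple), samples 1 to 4 from left and bars for mean ± SD. Ddit4 is higher and Bcl6 lower in all 4 libraries labelled KO, and the other 8 members overlap. Over all tested genes 18.7% lay apart in either direction.

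Among the other lists the KO table had few calls, beside 2.83% of all genes higher and 4.20% lower. Of 24 other FOXO factors and targets 2 were higher, Foxo6 (1.28 ± 0.33) and Gadd45a (0.92 ± 0.25), and 2 lower, the insulin pathway genes Irs2 (-1.13 ± 0.28) and Insr (-0.88 ± 0.19). The mTOR complex list had 1 higher, Akt1s1, and 1 lower, Deptor (-1.37 ± 0.35), of 11. Upstream regulators had 1 higher, Castor1, and 1 lower, Prkaa2, of 27. Of 20 PI3K and AKT genes 2 were lower, Tbc1d4 (-0.94 ± 0.21) and Pik3r1 (-0.80 ± 0.19), and none higher. Of 14 p53 targets 2 were higher, Phlda3 (1.37 ± 0.26) and Bax (1.26 ± 0.30), and none lower. No gene was called among 12 acting below mTORC1, 8 glucocorticoid targets and 9 hypoxia targets.

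In fresh glands the members did not move as a block between E13 and E18. Over the 6 stages 9 of the 10 changed, all but Ddit4, beside 82.5% of all tested genes. From E13 to E18, Pdk4, Bcl6, Pik3ip1, Foxo3, Sesn1 and Foxo1 rose, 6 of 10 beside 36.5% of all genes, and Sesn3, Klhl24 and Ccng2 fell, 3 of 10 beside 36.2%. Each of these 9 genes had its E13 and E18 samples fully apart, as did 64.3% of all genes in either direction. Without E18 D all but Klhl24 kept their call. Whole glands change in makeup over this time, read here from marker sums on unscaled library sizes. Epithelial markers went from 1186 to 1330 CPM at E13 to 3434 to 4330 CPM at E18, mesenchyme markers from 14310 to 14840 to 3257 to 9796 CPM, and macrophage markers from 51.4 to 63.0 to 225 to 270 CPM. Neuron markers went from 256 to 312 CPM at E13 to 49.4 to 81.7 CPM at E18, with 6 of 6 lower. Skeletal muscle markers ran from 130 to 438 CPM at E13 and 33.7 to 431 CPM at E18, with 3 of 4 lower. The part of these shifts in the members' changes was not tested.

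Both forkhead factors rose. Foxo3 had 80.6, 82.8, 78.0 and 81.7 CPM at E13 and 136, 152, 131 and 163 CPM at E18 (0.85 ± 0.09, adjusted p = 4.9e-09). Between them lay a dip from E14 to E15 (-0.21 ± 0.09, adjusted p = 0.043) and a rise from E15 to E16 (0.38 ± 0.09, 0.0019). Foxo1 went from 17.9, 15.2, 15.7 and 14.4 CPM to 24.2, 28.4, 27.2 and 21.4 CPM (0.68 ± 0.12, adjusted p = 1.5e-05), with no single step past the test.

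Pdk4 and Bcl6 rose most. Pdk4 had 2.30, 1.09, 1.71 and 1.69 CPM at E13 and 11.1, 8.63, 7.71 and 8.71 CPM at E18, a 5.26-fold rise (2.39 ± 0.21, adjusted p = 6.3e-10). Its called steps were E14 to E15 (0.70 ± 0.22, adjusted p = 0.012), E16 to E17 (0.96 ± 0.21, adjusted p = 0.005) and E17 to E18 (0.95 ± 0.20, 0.002). Bcl6 had 3.39, 2.61, 3.60 and 3.75 CPM at E13 and 17.2, 19.2, 21.5 and 8.56 CPM at E18, a 4.96-fold rise (2.31 ± 0.21, adjusted p = 7.6e-10). Its steps to E14, E15 and E16 were called (0.66 ± 0.21, 0.87 ± 0.20 and 0.80 ± 0.19) with no change detected after that, and E18 D was its low E18 sample. The difference in timing between the 2 genes was not tested.

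Pik3ip1 and Sesn1, both restraints, also rose. Pik3ip1 went from 7.28, 6.08, 6.55 and 5.70 CPM at E13 to 14.4, 14, 13.9 and 16.1 CPM at E15 and 16.2, 15.5, 16.6 and 16.1 CPM at E18 (E18 minus E13, 1.33 ± 0.11, adjusted p = 2.6e-10). Its called steps were E13 to E14 (0.49 ± 0.11) and E14 to E15 (0.69 ± 0.11). Sesn1 went from 72.8, 77.3, 71.2 and 69.7 CPM at E13 to 65.1, 67.5, 64.4 and 78.8 CPM at E15 and 136, 128, 116 and 122 CPM at E18 (0.79 ± 0.07, adjusted p = 1.6e-09). It fell slightly from E14 to E15 (-0.19 ± 0.07) and rose to E16 (0.29 ± 0.07) and E17 (0.39 ± 0.07).

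Sesn3, Klhl24 and Ccng2 fell, and all 3 had their steepest step from E14 to E15. Over all genes this step also held the most calls, at 49.7% (25% lower), against 5.5% to 23.5% at the other steps. Sesn3 had 48.5, 42.4, 43.4 and 48.5 CPM at E14 and 18.3, 18.8, 19.9 and 24.2 CPM at E15 (-1.17 ± 0.15, adjusted p = 1.5e-06), and 16.3, 17.3, 11.9 and 10.1 CPM at E18. The sestrin paralogs thus ended in opposite directions, since Sesn1 rose. Klhl24 had 53.2, 52.7, 51.6 and 57.6 CPM at E14 and 22.6, 21.4, 29.9 and 35.0 CPM at E15 (-0.98 ± 0.18, adjusted p = 8.2e-05). By E18 it was back at 53.6, 49.7, 42.5 and 28.6 CPM, up from E17 by 0.54 ± 0.18 (adjusted p = 0.045), with E18 D low again.

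For Klhl24 the difference between E18 and E13 was -0.47 ± 0.17 (adjusted p = 0.019), and it was lost without E18 D (-0.31, adjusted p = 0.074) and without E13 C (-0.40, 0.057). It was also lost when the fit held only the E13 and E18 glands (-0.40 ± 0.18, adjusted p = 0.074). Ccng2 stepped from 45.5, 54.9, 54.3 and 52.4 CPM at E14 to 39.5, 35.8, 39.7 and 47.5 CPM at E15 (-0.35 ± 0.09, adjusted p = 0.002) and stayed at 37.8 to 42.8 CPM at E18. Ddit4 had 73.5 to 87.0 CPM at E13 and 47.3 to 82.7 CPM at E18 with overlapping samples (-0.35 ± 0.22, adjusted p = 0.15), and it was called lower without E18 A (-0.52, 0.045). Its single samples varied widely, with 37.8 CPM in E14 A and 30.3 CPM in E15 B, both of which also stood apart over all genes.

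**Figure D5:**
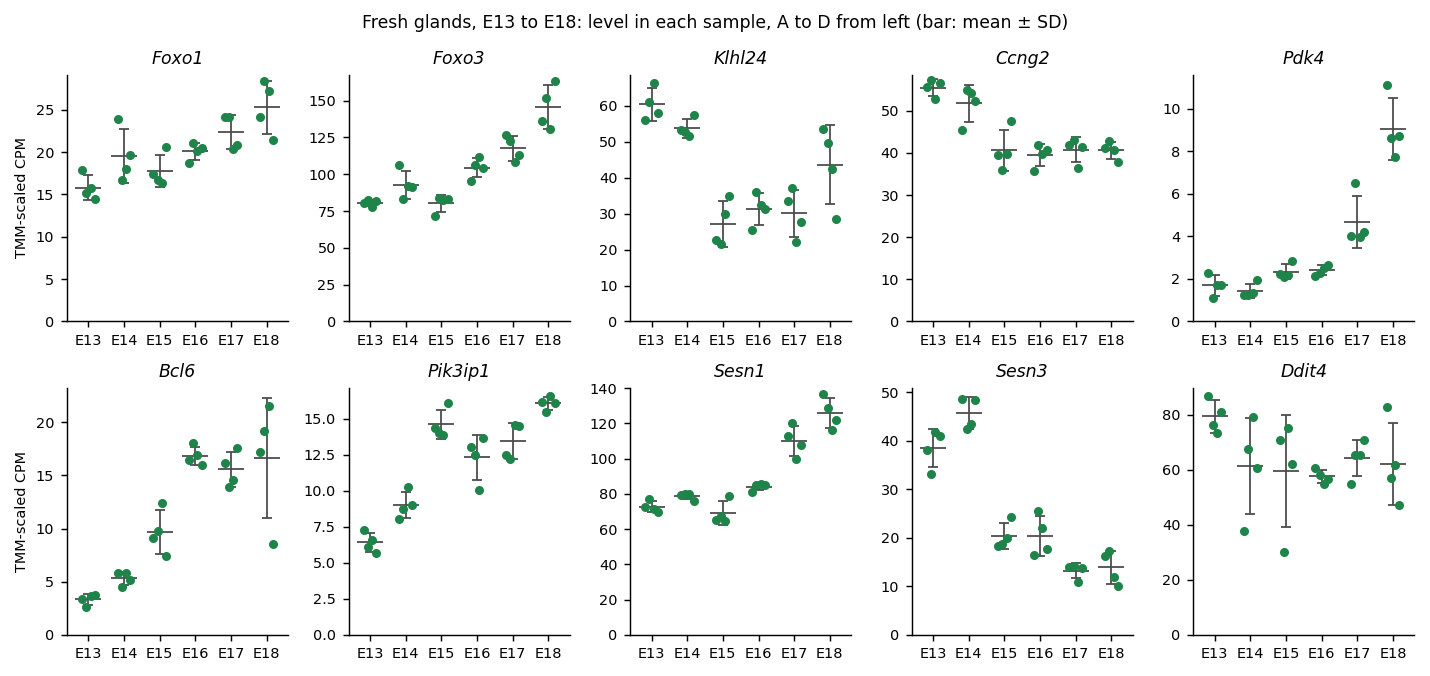
TMM-scaled CPM (vertical axis, from 0) of each member in each fresh gland sample at E13 to E18 (horizontal axis), samples A to D from left at each stage and bars for mean ± SD. Pdk4 and Bcl6 climb from 1.70 and 3.34 CPM on average to 9.04 and 16.6, while Sesn3 and Klhl24 drop between E14 and E15.

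Among the other FOXO factors and targets 10 of 26 were higher and 7 lower at E18 than at E13. For this list and those that follow, 36.5% of all genes were higher and 36.2% lower. The gluconeogenic enzyme gene Pck1 (5.17 ± 0.52) and the antiproliferative gene Btg1 (2.27 ± 0.10) led the risers, and Tle4 (-1.64 ± 0.16) and Irs2 (-1.37 ± 0.36) led the fallers. The mTOR complexes had 3 of 11 higher and 6 lower, with the mTOR inhibitor gene Deptor at 3.12 ± 0.17 and the mTORC1 subunit gene Rptor at -0.71 ± 0.12. Upstream regulators had 9 higher and 12 lower of 27, among them the arginine sensor gene Castor1 (1.61 ± 0.19) and Fnip2 (-1.22 ± 0.12). The PI3K and AKT list had 6 higher and 9 lower, with the insulin receptor substrate gene Irs1 at -3.21 ± 0.41 and Tbc1d4, an AKT substrate in glucose uptake, at 2.23 ± 0.11. Of the genes acting below mTORC1 7 rose and 1 fell, and the faller was Eif4e (-0.94 ± 0.08). The p53 targets had 3 higher and 4 lower, the glucocorticoid targets 6 higher and none lower, and the hypoxia targets 4 higher and 2 lower.

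By likeness over the 24 gland samples (Pearson's r of log2 CPM, a description over samples that share their stage), the nearest genes of Foxo3 were Phkb (r = 0.96), Rhoq (0.96) and Map3k1 (0.95). Sesn1 shared Rhoq (0.97) and Phkb (0.96) with it, beside Gpr155 (0.96). Foxo1 was nearest to Map3k1 (0.92), Slc25a16 (0.90) and Phkb (0.89). Pdk4 was nearest to Tifa, Txnip and Smpdl3b (0.94 each), and Bcl6 to Spns2, Shroom3 and Tnfrsf11a (0.98 each). Pik3ip1 was nearest to Mfap5 (0.96), Lyz2 (0.95), which marks macrophages, and 1500015O10Rik (0.94). Among the genes that fell, Sesn3 was nearest to Atr, Ptprg and Pcdh7 (0.98 each), Klhl24 to Ddx17 (0.94), Kmt5b (0.94) and Zfp715 (0.93), and Ccng2 to Slc36a4 (0.94), Bmt2 (0.94) and Pja2 (0.94). Ddit4 had no gene as near, with Bcl10 at 0.79, Cox11 at 0.77 and Hist1h4a at 0.75.

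Levels were compared between genes per kilobase of exon (CPM per kb). In E13 control end buds Ddit4 was highest at 155 ± 42.4 CPM per kb, followed by Ccng2 (47.3 ± 1.78) and Sesn1 (45.5 ± 3.84), whose ranges overlapped, and by Foxo3 (27.5 ± 2.57) and Klhl24 (27.2 ± 0.731), which also overlapped. Pik3ip1 (11.3 ± 1.71), Sesn3 (7.69 ± 1.02), Foxo1 (4.16 ± 0.252), Bcl6 (3.51 ± 1.77) and Pdk4 (2.57 ± 1.72) came below, the last 3 within each other's spread. Ddit4 had the highest mean of the measured members in every group except TORIN1. There it fell to 16.3 ± 1.11 CPM per kb, behind Sesn1 (23.6 ± 1.14), Foxo3 (23.3 ± 2.30) and Klhl24 (21.4 ± 3.06) and level with Ccng2 (16.4 ± 2.76). In E13 glands Sesn3 (2.52 ± 0.255) stood above Bcl6 (0.498 ± 0.0759) and Pdk4 (0.484 ± 0.141), and in E18 glands this order was turned, with Pdk4 at 2.57 ± 0.412, Bcl6 at 2.48 ± 0.843 and Sesn3 at 0.910 ± 0.226.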

How the data were processed

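Raw counts per gene were deposited in 5 tables, made with fastp, STAR and featureCounts on mm10 per the submitters' processing notes. Versions and settings were not given in the sources used here. Counts of overlapping genes (Gm12592 with Pik3ip1, Gm20402 with Foxo1, Gm37419 with Bcl6) are therefore uncertain. On the same strand, Gm38034 lies within the span of Foxo1 and 9930024M15Rik within that of Sesn1. Whether they share exon bases with these members was not checked. Ensembl identifiers were matched to GENCODE M21 symbols (97.8% of 35275 and 99.8% of 54532). In the table of cultures, 8 entries turned into dates (0.123% of counts) were left out, and its totals are not depths.

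Counts were fitted per table with edgeR 4.0.16 (R 4.3.3; TMM, default filter on low counts, robust quasi-likelihood F test, all groups in 1 fit) and checked on simulated counts. SE is the log2 fold change divided by the square root of F. Alternatives were DESeq2 1.42.0, other scalings, no filter, a replicate block, a fit of only the groups compared and leaving out each sample. No replicate pair agreed within sampling noise (lowest chi-square per gene 3.43).

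Of each other list, the text names from the 2 called genes with the largest change in each direction, and the 3 genes of highest r are named for each member. Members, lists and tests were chosen with earlier results of these data known. Samples were grouped by title, with S in an end bud column name read as NRG1.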

Additional observations from a re-analysis of the deposited data

Results flagged for a closer look

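In 6 of 100 gene-by-group sets of 4 samples, a single sample lay farther from the others than Dixon's 95% limit allows, a distance that chance gives in about 1 group in 20. Pdk4 was high in WT 3 (3.94 CPM, the other libraries labelled WT 1.29 to 1.70) and in E17 B (6.51 CPM, the others 3.97 to 4.22). Foxo3 was low in E15 A at 71.5 CPM, against 82.4 to 84.2. Sesn1 was low in E14 D at 76.0 CPM, against 79.4 to 79.8, and in E16 A at 81.0 CPM, against 85.0 to 85.5. Sesn3 was low in E17 C at 10.9 CPM, against 13.7 to 14.2. E18 D and TORIN1 A, which stood farthest apart over all genes, were not among them.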

How the results depend on the processing

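No result changed direction past a threshold under any alternative run. In the end buds 9 members were lower with NRG1 at E13 in every fit. DESeq2 called 2 members in the difference between the titles, where edgeR called none and 815 against 367 genes overall were called. Leaving out 1 sample gave 0 to 3 members higher and 1 to 2 lower with TORIN1, and 0 to 1 higher and 0 to 4 lower in the libraries labelled KO. In the latter, 3 members were lower without scaling and with DESeq2, and 4 were lower with no filter on low counts, where 0 were higher. With a replicate block 2 were lower and 0 higher there. In no table did every pair of same-numbered samples deviate together (in the TORIN1 table correlations were 0.36, 0.25, -0.12 and 0.43 for A, B, C and D), so the numbers were not taken as pairs, and the block changed no other count of members called by over 1.5 times. All-gene counts moved more than those of the members: 873 genes with TORIN1 became 1966 with DESeq2 and 144 to 3856 without 1 sample. For the KO labels 1054 became 1659 without scaling, 2680 with DESeq2 and 2121 with no filter, and the difference between titles ran from 140 to 1084 without 1 sample. Without scaling the median of all genes moved to -0.33 from E13 to E18 (0.01 with TMM) and to -0.15 in the KO table (-0.04 with TMM). Ddit4 was then called lower at E18 (-0.68, adjusted p = 0.0093), as it was without E18 A (-0.52, 0.045). Pdk4 in E14 end buds lost its call with no filter (adjusted p = 0.086), with a replicate block (0.098) and without any 1 of 5 samples (0.055 to 0.15). Foxo1 there gained one with size factors, without scaling and with DESeq2 (0.030 to 0.034). The cause of these changes was not tested. Depth limits Pdk4 most, which had the lowest CPM of the members in every group that measured it.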
